A study of Mus musculus with 2 samples.

Results

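The genes described here are the cadherins and the non-clustered protocadherins, chosen by symbol alone from the gene table: the numbered Cdh and Pcdh genes, Celsr1 to Celsr3, Fat1 to Fat4, and Dchs1 and Dchs2, without the endothelial gene Cdh5. There were 42 such genes among 43437. Polyadenylated RNA was sequenced from telencephalon and from whole body, 1 library each. The fetuses were wild-type ICR mice, untreated, at E12.5. The telencephalon is the front of the embryonic brain, which forms cortex and basal ganglia, and ICR is an outbred stock. How many fetuses were pooled, their sex, and whether the head was part of the whole body are not stated in the labels. With 1 library per tissue no difference has a replicate check, no test was possible, and every value describes these 2 libraries.

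Cadherins are membrane proteins whose extracellular repeats bind those of a cadherin on the neighbouring cell when calcium is present. Classical cadherins hold cells together at adherens junctions, where their cytoplasmic tails bind beta-catenin and p120-catenin, and cells tend to sort by the cadherins they carry. In the embryonic brain N-cadherin (Cdh2) joins the apical endfeet of neuroepithelial cells, and type II cadherins and delta protocadherins mark regions and fibre tracts in overlapping patterns. The Celsr proteins act in planar cell polarity and axon guidance, and the Fat and Dachsous proteins bind each other as giant ligand and receptor pairs.

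Levels are given in FPKM, which divides a gene's fragments by transcript length and library depth, so they can be compared between genes. The steps of the lowest FPKM values corresponded to about 22700000 fragments in the telencephalon library and 29300000 in the whole-body library. A difference is the log2 ratio after 1 FPKM was added to both values, with telencephalon on top. The added 1 makes differences of weakly expressed genes look smaller. A gene is called past 2-fold or past 4-fold, higher or lower, by this log2 ratio alone. A fold printed beside a gene is the plain ratio of FPKM, which can pass a limit that the log2 ratio does not reach, and the 95% exact binomial intervals of such folds come from estimated fragment numbers and cover counting error only. A gene counted as measured at 1 FPKM or more in either library. Among telencephalic markers, Dlx2 stood at 212 FPKM in telencephalon, against 5.40 FPKM in whole body, and Tbr1 at 172 FPKM in telencephalon, against 4.59 FPKM in whole body. Emx2 stood at 4.75 FPKM in telencephalon, against 1.93 FPKM in whole body, a log2 ratio of 0.97, just under the 2-fold limit. In telencephalon all 6 liver and gut markers and all 6 skeletal muscle markers were lower. So were 3 of 5 blood markers, 4 of 5 measured hindbrain and spinal cord markers, and 4 of 4 measured kidney markers. The other blood markers, Hbb-y and Hba-x, were the most abundant and lay within 2-fold. Hbb-y stood at 2153 FPKM in telencephalon, against 3360 FPKM in whole body. Hba-x stood at 438 FPKM in telencephalon, against 643 FPKM in whole body. Isl1, placed in the hindbrain and spinal cord list, was higher, at 47.5 FPKM in telencephalon, against 11.6 FPKM in whole body. Which cells carried it was not tested.

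By gene FPKM, the cadherin repertoire of the telencephalon library was led by N-cadherin, Celsr3 and Celsr2, and that of whole body by the mesenchymal gene Cdh11. Of the 42 genes 33 were measured, 28 of them at 1 FPKM or more in both libraries. Higher by 2-fold or more were 9 genes (27.3%), where 9.39% of all 14987 genes with such a level were, and lower were 6 (18.2%), where 21.2% were. The other 18 (54.5%) lay within 2-fold, as did 69.5% of all. The median log2 ratio of the 33 genes was 0.40, beside -0.16 over all measured genes. Past 4-fold by the log2 ratio after 1 FPKM was added were Celsr3 and Cdh22 on the higher side, where 2.2% of all measured genes lay, and Cdh1, Cdh3, Cdh11 and Pcdh18 on the lower side, where 8.23% lay, with 89.6% between these limits. A gene that counts as measured through 1 library only was kept for its level there, which favours a difference, and this applied to Cdh7 and Cdh20 through telencephalon and to Cdh1, Cdh3 and Pcdh15 through whole body. In bulk RNA, fewer cells of a type and less RNA per cell cannot be told apart.

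Both libraries held a few abundant members and a long tail. At 10 FPKM or more stood 17 genes in telencephalon and 15 in whole body, while 12 genes in telencephalon and 11 in whole body stood below 1 FPKM. The 5 highest genes in telencephalon were Cdh2, Celsr3, Celsr2, Dchs1 and Pcdh10, with 56.0% of the members' summed FPKM. In whole body they were Cdh11, Dchs1, Cdh2, Pcdh18 and Fat1, with 54.3%. Cdh2 and Dchs1 were thus the genes common to both lists. Summed over all 42 genes the level was 646 FPKM in telencephalon, against 506 FPKM in whole body, a ratio of 1.28. The Celsr genes made up 27.7% of the telencephalon sum and 9.13% of the whole-body sum. Fat and Dachsous genes made up 13.4% in telencephalon and 23.8% in whole body. These levels cover all isoforms of a gene, short ones included. The most abundant isoform of Celsr2 stood at 42.5 FPKM in telencephalon and that of Celsr3 at 30.0 FPKM. Both were below the most abundant Dchs1 isoform, at 51.8 FPKM in telencephalon.

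**Figure D1:**
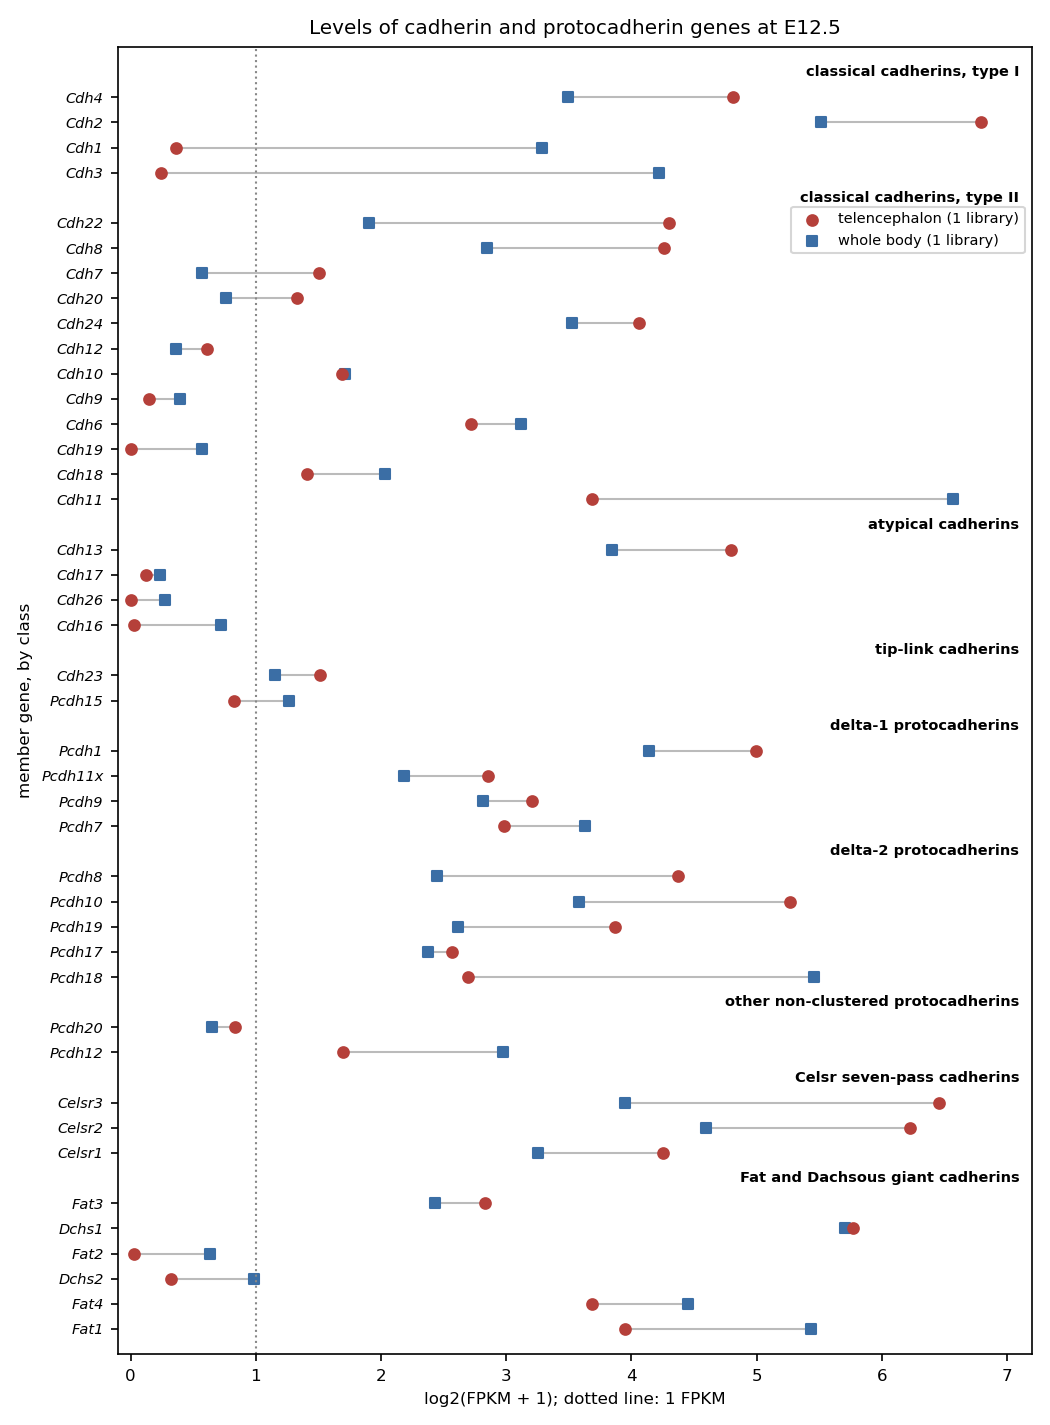
Level of each of the 42 genes as log2(FPKM + 1), telencephalon as red circles and whole body as blue squares, 1 library each, grouped by class; the dotted line marks 1 FPKM. Cdh2 is the highest point in telencephalon (110 FPKM) and Cdh11 the highest in whole body (93.7 FPKM).

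The 4 type I cadherins divided into a neural pair that was higher in telencephalon and an epithelial pair that was lower. Cdh2, which encodes N-cadherin, stood at 110 FPKM in telencephalon, against 44.7 FPKM in whole body, 2.46-fold higher (interval 2.38 to 2.54). Cdh4, the closely related R-cadherin of the developing brain and retina, stood at 27.0 FPKM in telencephalon, against 10.3 FPKM in whole body, 2.63-fold higher (2.48 to 2.79). The balance of these neural cadherins was alike in the 2 tissues, with Cdh2 4.07 times the level of Cdh4 in telencephalon and 4.35 times in whole body. Cdh1, which encodes the E-cadherin of epithelia (chromosome 8, 106603351 to 106670246 on GRCm38), stood at 0.282 FPKM in telencephalon, from about 18 fragments, and 8.77 FPKM in whole body, 31.1-fold lower (19.6 to 52.8). Cdh3, the P-cadherin of skin and placenta (chromosome 8, 106510891 to 106557297), stood at 0.181 FPKM in telencephalon, from about 17 fragments, and 17.6 FPKM in whole body, 97.4-fold lower (60.7 to 167). These are the lowest log2 ratios among the 33 measured genes, -2.93 for Cdh1 and -3.98 for Cdh3. The 2 genes lie side by side on the plus strand, 46.1 kb apart.

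The epithelial markers moved with Cdh1 and Cdh3. All 7 surface and gut epithelial markers were at least 2-fold lower, with a summed level of 1.10 FPKM in telencephalon, against 118 FPKM in whole body. Krt14 and Krt18 were listed at 0 in telencephalon. Epcam, for an adhesion protein of simple epithelia, was 17.3-fold lower. The desmosomal cadherins, which anchor keratin filaments in epithelia, were near the floor in telencephalon as well: Dsg2 stood at 0.0863 FPKM in telencephalon, against 2.72 FPKM in whole body, and Dsc2 at 0.105 FPKM in telencephalon, against 2.71 FPKM in whole body. These were the 2 measured genes of 9 in that group, and both were lower. The part of epithelial cells in the difference was not tested.

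The 12 type II cadherins, of which 9 were measured, spread over both sides, from Cdh22 at a log2 ratio of 2.39 to Cdh11 at -2.88. Cdh22, a cadherin enriched in brain (chromosome 2, 165111507 to 165234853), stood at 18.7 FPKM in telencephalon, against 2.75 FPKM in whole body, 6.81-fold higher (5.95 to 7.82). Cdh8, which marks cortical areas and their connections (chromosome 8, 99024471 to 99416471), stood at 18.1 FPKM in telencephalon, against 6.20 FPKM in whole body, 2.92-fold higher (2.61 to 3.27). These were the 2 type II genes past 2-fold on the higher side. Cdh24 lay within 2-fold, at 15.6 FPKM in telencephalon, against 10.5 FPKM in whole body, and so did Cdh6, a cadherin of the renal vesicle and of brain boundaries, at 5.57 FPKM in telencephalon, against 7.67 FPKM in whole body. Cdh10, at 2.23 FPKM in telencephalon, against 2.27 FPKM in whole body, had the ratio closest to 1 in the class, with an interval from 0.784 to 1.22. Cdh18 stood at 1.65 FPKM in telencephalon, against 3.08 FPKM in whole body.

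Cdh11, a cadherin of mesenchyme and bone-forming cells (chromosome 8, 102632095 to 102785642), was the most abundant member in whole body and the only type II gene past 2-fold on the lower side. It stood at 11.9 FPKM in telencephalon, against 93.7 FPKM in whole body, 7.90-fold lower (7.48 to 8.34). Its level relative to N-cadherin was therefore opposite in the 2 libraries: Cdh2 was at 9.27 times the level of Cdh11 in telencephalon and at 0.477 times in whole body. Of 7 connective tissue and cartilage markers 6 were lower, with a summed level of 45.8 FPKM in telencephalon, against 1998 FPKM in whole body, none of them at 0. The plain folds of these markers ran from 1.19-fold lower for Sox9, which lay within 2-fold, to 183-fold lower for Col1a2. Col1a1, for the main collagen of connective tissue, was 167-fold lower. The part of mesenchymal cells in the Cdh11 difference was not tested. With about 1433 fragments in telencephalon, Cdh11 was well above the level that 3 fragments give, 0.0248 FPKM.

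The remaining type II genes were weakly expressed. Cdh7, of chromosome 1, stood at 1.84 FPKM in telencephalon, against 0.484 FPKM in whole body, an FPKM ratio of 3.80 (2.72 to 5.40). Cdh20, of the same chromosome, stood at 1.51 FPKM in telencephalon, against 0.692 FPKM in whole body, an FPKM ratio of 2.17 (1.62 to 2.93). Both are known from patterned expression in the neural tube, and both stayed below the 2-fold limit after 1 FPKM was added. In telencephalon 53.1% of the Cdh7 signal was assigned to an isoform annotated for nonsense-mediated decay, and protein-coding isoforms held 0.862 FPKM in telencephalon, against 0.348 FPKM in whole body. Cdh12, Cdh9 and Cdh19 did not reach 1 FPKM in either library. Cdh12 stood at 0.530 FPKM in telencephalon, against 0.282 FPKM in whole body, and Cdh9 at 0.107 FPKM in telencephalon, against 0.317 FPKM in whole body. Cdh19, a cadherin of Schwann cell precursors, was at 0 in telencephalon, against 0.484 FPKM in whole body, from about 51 fragments. The level that 3 fragments would give it in telencephalon is 0.0369 FPKM. Of 5 markers of the neural crest and Schwann lineage 4 were at least 2-fold lower, with summed levels of 5.26 FPKM in telencephalon, against 24.8 FPKM in whole body, and Sox10 was among the lower ones. Their part in the Cdh19 values was not tested.

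Of the 4 cadherins classed as atypical 1 was measured. Cdh13, or T-cadherin, is held in the membrane by a lipid anchor and binds adiponectin. It stood at 26.7 FPKM in telencephalon, against 13.4 FPKM in whole body, a log2 ratio of 0.95 (interval of the FPKM ratio 1.85 to 2.16). Part of that difference lay in a 715-base isoform annotated as a retained intron, which held 29.5% of the Cdh13 signal in telencephalon and 11.4% in whole body. The protein-coding isoform stood at 18.7 FPKM in telencephalon, against 10.9 FPKM in whole body. Cdh16, the kidney cadherin, stood at 0.0165 FPKM in telencephalon, from about 1 fragment, and 0.648 FPKM in whole body, from about 49. All 4 measured kidney epithelial markers were lower, with summed levels of 3.27 FPKM in telencephalon, against 19.4 FPKM in whole body for the list of 5, and their part in the Cdh16 values was not tested. Cdh17, the liver and intestine cadherin, stood at 0.0876 FPKM in telencephalon, against 0.174 FPKM in whole body, and Cdh26 was at 0 in telencephalon, against 0.212 FPKM in whole body.

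Cdh23 and Pcdh15, whose proteins form the tip links of hair cells in the inner ear, were at low levels in both libraries. Cdh23 stood at 1.86 FPKM in telencephalon, against 1.22 FPKM in whole body, but protein-coding isoforms held only 12.2% of this in telencephalon and 13.7% in whole body. Pcdh15 stood at 0.774 FPKM in telencephalon, against 1.40 FPKM in whole body. Of 7 genes for proteins that work with tip links 3 were measured, and Myo7a, the motor that tensions them, was the one past 2-fold, at 0.886 FPKM in telencephalon, against 3.53 FPKM in whole body.

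**Figure D2:**
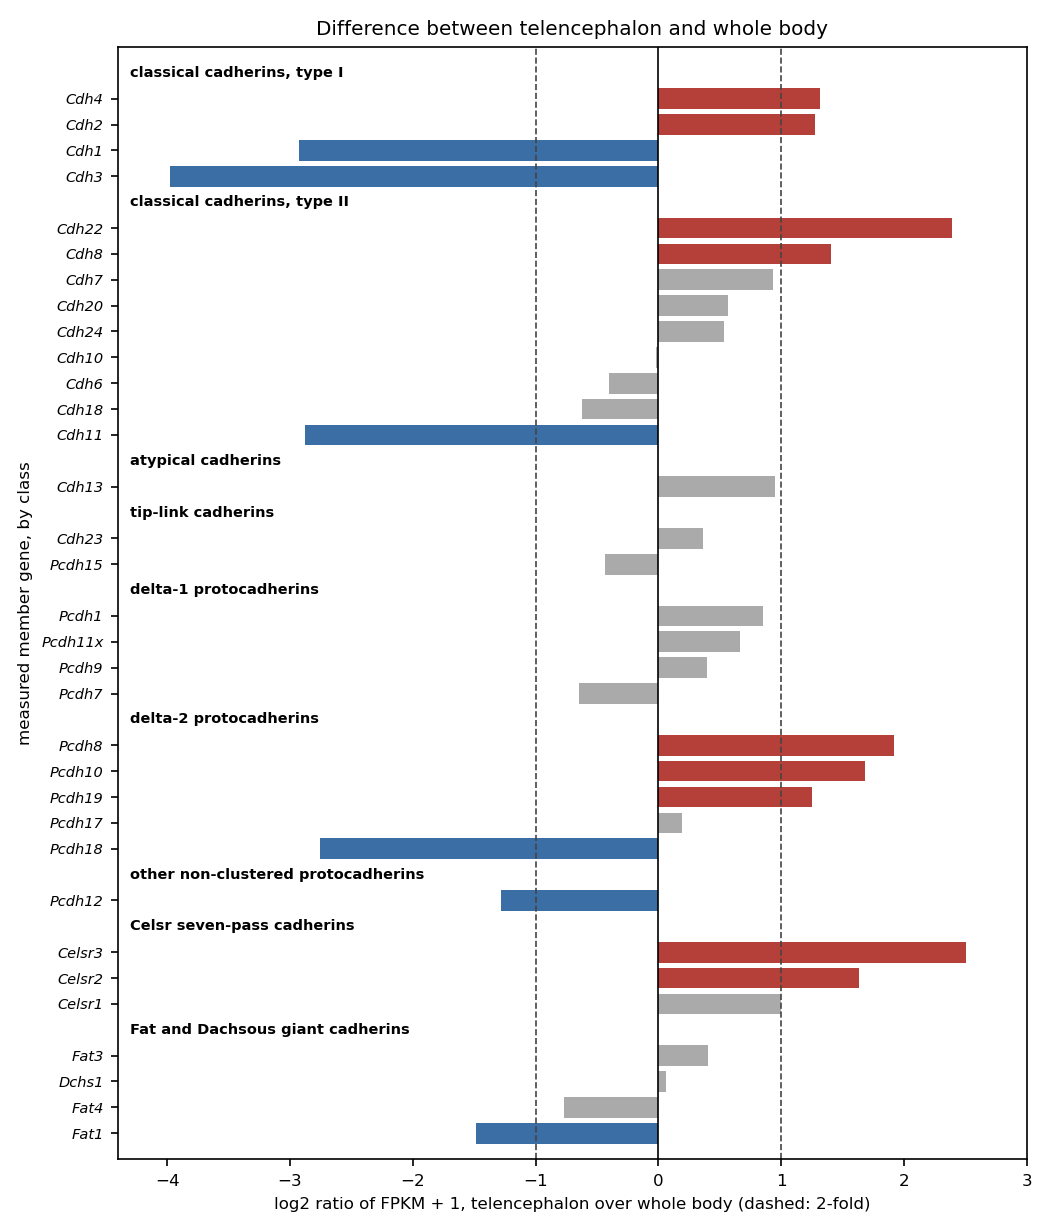
Log2 ratio of FPKM + 1, telencephalon over whole body, for the 33 measured genes by class; bars are 1 library against 1 library, red at or above 2-fold higher, blue at or below 2-fold lower, grey within, and dashed lines mark 2-fold. The type I and delta-2 classes hold bars on both sides, whereas the 3 Celsr bars all point to telencephalon and Celsr1 ends just short of the dashed line.

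All 4 delta-1 protocadherins lay within 2-fold. Delta protocadherins are adhesion molecules of neurons, and the delta-1 group has an additional motif in its tail. Pcdh1 stood at 30.9 FPKM in telencephalon, against 16.6 FPKM in whole body, 1.86-fold higher (1.75 to 1.97). Pcdh11x, on the X chromosome, stood at 6.21 FPKM in telencephalon, against 3.55 FPKM in whole body, and Pcdh9 at 8.25 FPKM in telencephalon, against 6.03 FPKM in whole body. Pcdh7 was the one delta-1 gene on the other side, with 6.90 FPKM in telencephalon, against 11.4 FPKM in whole body, 1.65-fold lower (1.5 to 1.82).

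The delta-2 protocadherins were split, with 3 genes past 2-fold on the higher side and 1 on the lower. Pcdh8, or arcadlin, regulates N-cadherin at synapses. It stood at 19.7 FPKM in telencephalon, against 4.46 FPKM in whole body, 4.41-fold higher (3.98 to 4.89), with a log2 ratio of 1.92 after 1 FPKM was added. Pcdh10, which guides axons in the ventral forebrain (chromosome 3, 45378398 to 45435623), stood at 37.4 FPKM in telencephalon, against 10.9 FPKM in whole body, 3.42-fold higher (3.22 to 3.63). Pcdh19, an X-linked gene mutated in a human epilepsy of girls, stood at 13.6 FPKM in telencephalon, against 5.12 FPKM in whole body, 2.65-fold higher (2.49 to 2.83). Pcdh17, a protocadherin of basal ganglia circuits, was close to even at 4.94 FPKM in telencephalon, against 4.20 FPKM in whole body. Pcdh18 (chromosome 3, 49743296 to 49757325) went the other way, at 5.49 FPKM in telencephalon, against 42.9 FPKM in whole body, 7.81-fold lower (7.02 to 8.72). Pcdh10 was 6.82 times the level of Pcdh18 in telencephalon and 0.255 times in whole body. The 2 genes lie 4.31 Mb apart on chromosome 3. A processed transcript without a coding sequence carried 35.3% of the Pcdh10 signal in telencephalon and 27.4% in whole body, and the protein-coding isoforms alone stood at 24.2 FPKM in telencephalon, against 7.95 FPKM in whole body. Of the 7 mesenchymal markers given beside Cdh11, 6 were lower together with Pcdh18, and their part in its difference was not tested. Xist, the RNA of the inactive X chromosome, stood at 55.1 FPKM in telencephalon, against 0.0703 FPKM in whole body. The Y-linked gene Eif2s3y stood at 4.97 FPKM in telencephalon, against 19.2 FPKM in whole body. The sex makeup of the libraries and the tissue cannot be told apart, and its part in the values of the X-linked Pcdh19 and Pcdh11x was not tested.

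The promoters of the delta-2 genes with the largest differences on each side, Pcdh8 and Pcdh10 higher and Pcdh18 lower, are shown. Each window runs from 250 bases before to 50 bases after the RefSeq start on GRCm38.p6, 5′ to 3′ on the gene's strand. Capitals mark exact matches, on either strand, to CAGGTG (E-box of Snail and Zeb factors), CAGCTG (E-box of proneural factors), TAATTA (core site of homeodomain factors), TATAAA (bound by TBP in core promoters), CCAAT (bound by NF-Y) or GGGCGG (bound by Sp factors).
Pcdh8, chr14:79771263-79771562, minus strand: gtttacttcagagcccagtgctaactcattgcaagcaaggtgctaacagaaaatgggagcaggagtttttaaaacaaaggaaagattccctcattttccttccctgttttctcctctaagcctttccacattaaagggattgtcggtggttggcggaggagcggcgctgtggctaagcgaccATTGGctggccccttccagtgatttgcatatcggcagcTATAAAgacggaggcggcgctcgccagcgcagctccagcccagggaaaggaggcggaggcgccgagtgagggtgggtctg
Pcdh10, chr3:45378148-45378447, plus strand: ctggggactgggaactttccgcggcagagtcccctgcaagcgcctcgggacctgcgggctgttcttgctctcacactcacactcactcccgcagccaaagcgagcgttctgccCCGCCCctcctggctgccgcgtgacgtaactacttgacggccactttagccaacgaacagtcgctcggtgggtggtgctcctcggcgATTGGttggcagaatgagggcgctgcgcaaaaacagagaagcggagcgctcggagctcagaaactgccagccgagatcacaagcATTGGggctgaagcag
Pcdh18, chr3:49757267-49757566, minus strand: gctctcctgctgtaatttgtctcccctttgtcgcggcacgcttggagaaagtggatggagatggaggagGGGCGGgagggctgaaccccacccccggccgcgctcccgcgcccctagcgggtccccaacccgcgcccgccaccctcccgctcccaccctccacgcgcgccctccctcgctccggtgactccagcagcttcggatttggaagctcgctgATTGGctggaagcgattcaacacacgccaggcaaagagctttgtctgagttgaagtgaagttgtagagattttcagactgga
No matches overlapped one another in these windows. Pcdh8 had 1 TATAAA and 1 CCAAT match, Pcdh10 had 2 CCAAT and 1 GGGCGG, and Pcdh18 had 1 CCAAT and 1 GGGCGG, so Pcdh10 and Pcdh18 shared the same kinds of match while their levels differed in opposite directions. The delta-2 promoters not printed held the same kinds, with 1 CCAAT and 1 GGGCGG in Pcdh19, a higher gene, and 2 CCAAT and 1 GGGCGG in Pcdh17, a gene within 2-fold. Among all 32851 promoter windows of this length, 37.4% held CCAAT, 35.7% GGGCGG and 13.6% TATAAA. RefSeq windows were at hand for 28 of the 42 genes, 31 windows in all, with a median GC content of 60.3% beside 52.7% for all windows, and a median of 18 CpG beside 7. Some of these windows lie well inside their GENCODE genes. The Cdh12 window begins at 21111202 and its gene at 20449265, and the Fat1 window begins at 44949958 and its gene at 44935447. Those of Pcdh15, Cdh18 and Fat2 lie well inside as well. CCAAT was in 16 of the 31, GGGCGG in 10, CAGGTG in 7, CAGCTG in 3, TATAAA in 2 and TAATTA in 1, and over all windows CAGGTG was in 20.2%, CAGCTG in 16.3% and TAATTA in 5.29%. These are counts of windows, not genes, and Cdh7 and Pcdh9 have more than 1 window each. Every Cdh7 window held CAGGTG, and the overlapping Pcdh9 windows both held CCAAT.

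Pcdh12 and Pcdh20 belong to neither delta group. Pcdh12, a protocadherin of endothelium and placenta, stood at 2.23 FPKM in telencephalon, against 6.87 FPKM in whole body, 3.08-fold lower (2.65 to 3.59). A retained-intron isoform held 27.1% of this in telencephalon and 43.7% in whole body, and with protein-coding isoforms alone the log2 ratio was -0.82 in place of -1.28, no longer past 2-fold. All 6 endothelial markers were lower, with summed levels of 32.6 FPKM in telencephalon, against 115 FPKM in whole body, none of them at 0. The endothelial cadherin Cdh5, the gene left out of the members and 1 of these 6 markers, was 4.94-fold lower. The part of endothelial cells was not tested. Pcdh20 was below 1 FPKM in both, at 0.784 FPKM in telencephalon, against 0.571 FPKM in whole body.

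All 3 Celsr genes were higher in telencephalon, 2 of them past 2-fold, and this class had the largest fold in summed level. The 3 genes together stood at 179 FPKM in telencephalon, against 46.2 FPKM in whole body, 3.87-fold higher. Celsr3, which is required in neurons for the major forebrain axon tracts (chromosome 9, 108826320 to 108852969), stood at 86.9 FPKM in telencephalon, against 14.4 FPKM in whole body, 6.02-fold higher (5.72 to 6.33). Its log2 ratio of 2.51 was the highest of the 33 genes. Celsr2, expressed in progenitors and neurons and active in ependymal cilia (chromosome 3, 108390851 to 108415552), stood at 74.0 FPKM in telencephalon, against 23.2 FPKM in whole body, 3.19-fold higher (3.08 to 3.30). Celsr1, which orients skin and neural tube epithelia and is expressed in neural progenitors (chromosome 15, 85898929 to 86033777), stood at 18.1 FPKM in telencephalon, against 8.54 FPKM in whole body. Its ratio of FPKM was 2.11 (2.01 to 2.22), but its log2 ratio of 0.998 lay just below the limit. The order of the 3 genes by gene FPKM differed between the libraries. Celsr3 led in telencephalon at 4.81 times Celsr1, whereas Celsr2 led in whole body at 2.72 times Celsr1. Part of the Celsr3 level lay in short isoforms in both libraries. The 722-base isoform held 28.3% in telencephalon (24.6 FPKM) and 33.7% in whole body (4.86 FPKM). The 1418-base isoform held 24.5% in telencephalon (21.3 FPKM) and 24.8% in whole body (3.57 FPKM). By all protein-coding isoforms Celsr3 stood at 75.9 FPKM in telencephalon, against 13.6 FPKM in whole body. Celsr2 stood at 56.7 FPKM in telencephalon by that measure, against 18.5 FPKM in whole body. By the longest isoform Celsr2 led in both libraries, at 42.5 FPKM in telencephalon, against 12.8 FPKM in whole body. The longest Celsr3 isoform stood at 30.0 FPKM in telencephalon, against 5.16 FPKM in whole body.

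The promoters of the Celsr pair past 2-fold are shown with the same motifs in capitals.
Celsr3, chr9:108825795-108826094, plus strand: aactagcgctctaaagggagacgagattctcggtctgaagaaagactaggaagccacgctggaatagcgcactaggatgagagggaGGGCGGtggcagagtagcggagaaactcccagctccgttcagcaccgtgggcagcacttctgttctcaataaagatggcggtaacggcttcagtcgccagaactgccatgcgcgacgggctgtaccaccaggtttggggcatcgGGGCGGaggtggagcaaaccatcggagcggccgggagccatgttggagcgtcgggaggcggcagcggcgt
Celsr2, chr3:108415530-108415829, minus strand: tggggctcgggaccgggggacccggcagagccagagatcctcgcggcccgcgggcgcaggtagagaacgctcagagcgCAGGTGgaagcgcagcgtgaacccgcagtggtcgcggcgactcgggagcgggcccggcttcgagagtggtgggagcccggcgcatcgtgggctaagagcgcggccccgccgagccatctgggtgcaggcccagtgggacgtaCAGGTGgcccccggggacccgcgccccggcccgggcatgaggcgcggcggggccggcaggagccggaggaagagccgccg
Celsr3 had 2 GGGCGG matches and Celsr2 had 2 CAGGTG matches, and they shared none of the 6 motifs. The Celsr2 window held 40 CpG and the Celsr3 window 25. The RefSeq start of Celsr3 lies 275 bases from the GENCODE gene start. A match is a description of letters, not a bound site.

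**Figure D3:**
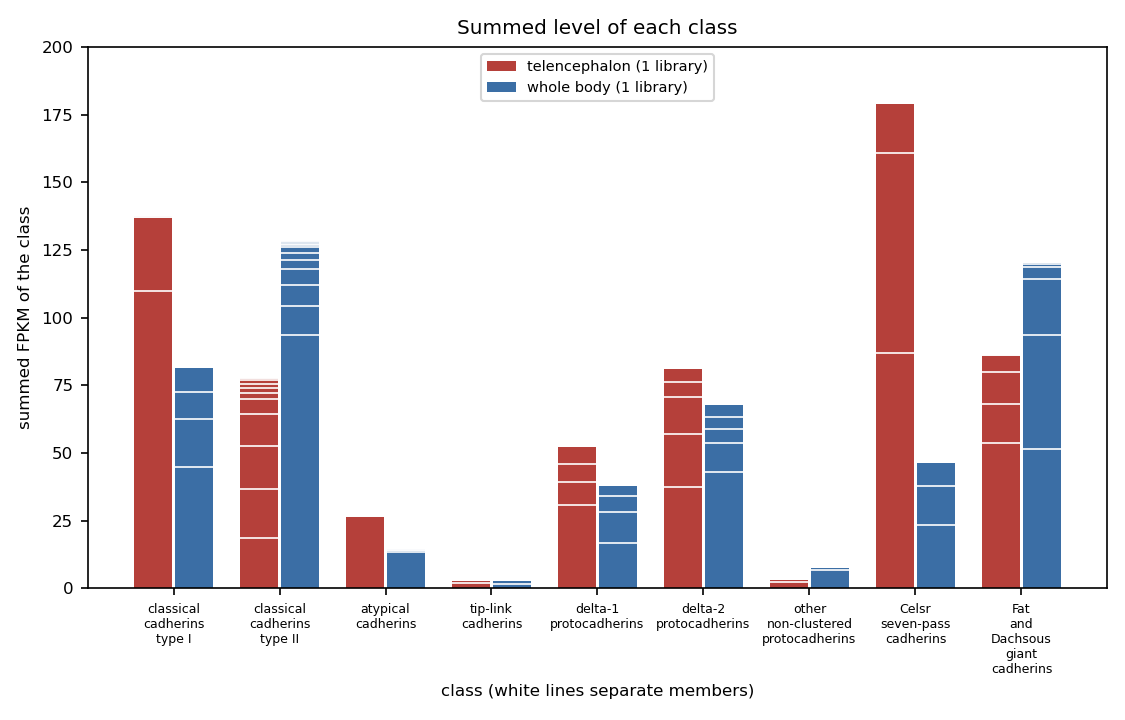
Summed FPKM of each class, telencephalon in red on the left and whole body in blue on the right, 1 library each; white lines separate members, with the most abundant at the bottom. The Celsr bars stand at 179 FPKM in telencephalon, against 46.2 FPKM in whole body, while type II cadherins stand at 77.7 FPKM in telencephalon, against 128 FPKM in whole body, most of the whole-body bar being Cdh11.

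Of the 6 Fat and Dachsous genes 3 lay within 2-fold, 1 was lower and 2 were below 1 FPKM in both libraries. Dchs1, which serves as a ligand of Fat4 and whose human counterpart is mutated in a neuronal migration disorder (chromosome 7, 105752990 to 105787654), was nearly even at 53.7 FPKM in telencephalon, against 51.3 FPKM in whole body, a ratio of 1.05 (1.02 to 1.07). Its receptor gene Fat4 stood at 11.9 FPKM in telencephalon, against 20.9 FPKM in whole body, 1.76-fold lower (1.70 to 1.83). Dchs1 was the most abundant gene of the class in both libraries, and was at 4.52 times the level of Fat4 in telencephalon and 2.45 times in whole body. Fat3, which shapes the dendrites of retinal neurons, stood at 6.12 FPKM in telencephalon, against 4.38 FPKM in whole body. Fat1, a regulator of actin at cell edges (chromosome 8, 44935447 to 45052257), stood at 14.4 FPKM in telencephalon, against 42.1 FPKM in whole body, 2.93-fold lower (2.83 to 3.03). The part of epithelial and mesenchymal cells, whose markers are given above, was not tested for Fat1.

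Coding sequences in this class run from 9873 to 14943 bases, and 2 genes of the class were at low levels. Dchs2 stood at 0.252 FPKM in telencephalon, against 0.980 FPKM in whole body, about 60 fragments in telencephalon and 301 in whole body, 3.88-fold lower (2.94 to 5.21). Fat2, a cadherin of cerebellar granule cells and skin, stood at 0.0187 FPKM in telencephalon, against 0.555 FPKM in whole body, about 6 fragments in telencephalon and 230 in whole body, 29.7-fold lower (13.4 to 81.8). Both are outside the counts because neither reached 1 FPKM, and Fat2 rests on few fragments in telencephalon. Of 3 partner genes 2 were past 2-fold on the higher side, beside 9.39% of all measured genes. Fjx1, whose fly counterpart is a Golgi kinase acting on Fat and Dachsous, stood at 33.7 FPKM in telencephalon, against 15.6 FPKM in whole body. Lix1 stood at 11.5 FPKM in telencephalon, against 4.38 FPKM in whole body. Lix1l stood at 30.8 FPKM in telencephalon, against 22.2 FPKM in whole body.

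The leading isoform was the same in both libraries for most of the 20 members compared. The same counts over all genes are not given here. Of 20 members with at least 2 isoforms and 2 FPKM in both libraries, 15 had the same leading isoform and 5 a different one, and in 10 no isoform's share differed by 10 percentage points or more. The 4 largest differences were in Pcdh12, Pcdh11x, Fat1 and Cdh13, of which Pcdh12 and Cdh13 are described above. In Pcdh9 the retained-intron isoform of 656 bases held 31.9% in telencephalon and 47.4% in whole body. In Pcdh11x a 1491-base coding isoform held 17.6% in telencephalon and 40.8% in whole body, while an isoform annotated for nonsense-mediated decay held 34.4% in telencephalon and 14.8% in whole body. Shares are the authors' division of fragments among overlapping isoforms and have no replicate check.

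The Fat1 difference concerned a short coding exon, shown because it separates its leading isoforms. Exon 26 of a 27-exon transcript of 14651 bases spans 36 bases on the plus strand of GRCm38, and the other long coding isoforms skip it. The exon comes from the GENCODE transcript.
Fat1 exon 26, chr8:45049842-45049877, plus strand: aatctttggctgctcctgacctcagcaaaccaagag
The isoform with this exon stood at 4.16 FPKM in telencephalon, against 20.5 FPKM in whole body. The long coding isoforms without it together stood at 8.60 FPKM in telencephalon, against 21.3 FPKM in whole body. The isoform with the exon thus made up 32.6% of the long coding Fat1 signal in telencephalon and 49.0% in whole body. The leading isoform without the exon has 14627 bases, so the transcripts also differ outside the exon, and the split does not rest on its reads alone.

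Exon numbers varied little among the type I, type II and Celsr genes and more in other classes. The 4 type I genes have 16 exons and the type II genes 11 to 13, over spans from 10.1 kb (Cdh24) to 1140 kb (Cdh12). Delta-2 genes have 3 to 6 exons, with a largest exon of 2816 to 6128 bases, the Celsr genes 34 or 35, the Fat and Dachsous genes 17 to 27, and the tip-link genes 35 and 71. Chromosome 8 carries 7 members, among them the lower genes Cdh1, Cdh3, Cdh11 and Fat1 and the higher gene Cdh8, which lies 3.22 Mb from Cdh11. Chromosome 15 carries 6 members, of which Cdh9 and Cdh12 were not measured. Cdh6, Cdh10, Cdh18 and Celsr1 lay within 2-fold, as did 69.5% of all measured genes, Celsr1 just below the limit. The kit does not mark strand, and exons of 12 members overlap exons of another gene, by 10% or more in Pcdh7 and Dchs2, whose opposite-strand partners were each below 1 FPKM in both libraries.

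The catenins, through which classical cadherins reach the cytoskeleton, showed their neural paralogs higher in telencephalon. Of 11 measured catenin and junction genes 4 passed 2-fold towards telencephalon and 1 towards whole body. Of all measured genes 9.39% passed it towards telencephalon and 21.2% towards whole body. Ctnnd2, the delta-catenin of neurons, stood at 55.2 FPKM in telencephalon, against 11.8 FPKM in whole body, 4.70-fold higher. Ctnna2, the neuronal alpha-catenin, stood at 69.9 FPKM in telencephalon, against 17.0 FPKM in whole body, while the broadly expressed Ctnna1 stood at 45.2 FPKM in telencephalon, against 62.6 FPKM in whole body. Ctnnd1, or p120-catenin, stood at 32.5 FPKM in telencephalon, against 51.7 FPKM in whole body. The other higher genes were Arvcf and Pkp4, of the p120-catenin family. Arvcf stood at 68.3 FPKM in telencephalon, against 29.2 FPKM in whole body, and Pkp4 at 86.1 FPKM in telencephalon, against 30.8 FPKM in whole body. A 306-base non-coding isoform carried 73.0% of Pkp4 in telencephalon, and its protein-coding isoforms stood at 10.6 FPKM in telencephalon, against 14.2 FPKM in whole body. Ctnnb1, which encodes beta-catenin, was the most abundant of the list and within 2-fold, at 729 FPKM in telencephalon, against 597 FPKM in whole body. Vcl, the actin-binding protein vinculin, was the lower gene, at 2.59 FPKM in telencephalon, against 19.3 FPKM in whole body.

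The planar polarity partners of the Celsr proteins did not share one direction. Of 11 measured members of this list 2 passed 2-fold towards telencephalon and 4 towards whole body, beside 9.39% and 21.2% of all measured genes. Vangl2 stood at 53.8 FPKM in telencephalon, against 23.6 FPKM in whole body, and Fzd3, which acts with Celsr3 in axon guidance, at 22.4 FPKM in telencephalon, against 9.94 FPKM in whole body. Their paralogs were on the other side, with Vangl1 at 0.994 FPKM in telencephalon, against 51.0 FPKM in whole body and Fzd6 at 1.08 FPKM in telencephalon, against 4.45 FPKM in whole body. A 472-base non-coding isoform held 57.4% of Vangl1 in whole body, and its protein-coding isoforms stood at 0.671 FPKM in telencephalon, against 10.6 FPKM in whole body. The other lower genes were Prickle1, at 1.97 FPKM in telencephalon, against 13.6 FPKM in whole body, and Ptk7, at 20.5 FPKM in telencephalon, against 77.3 FPKM in whole body. Dvl3, the most abundant by the sum of both libraries, was within 2-fold at 59.7 FPKM in telencephalon, against 39.9 FPKM in whole body.

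**Figure D4:**
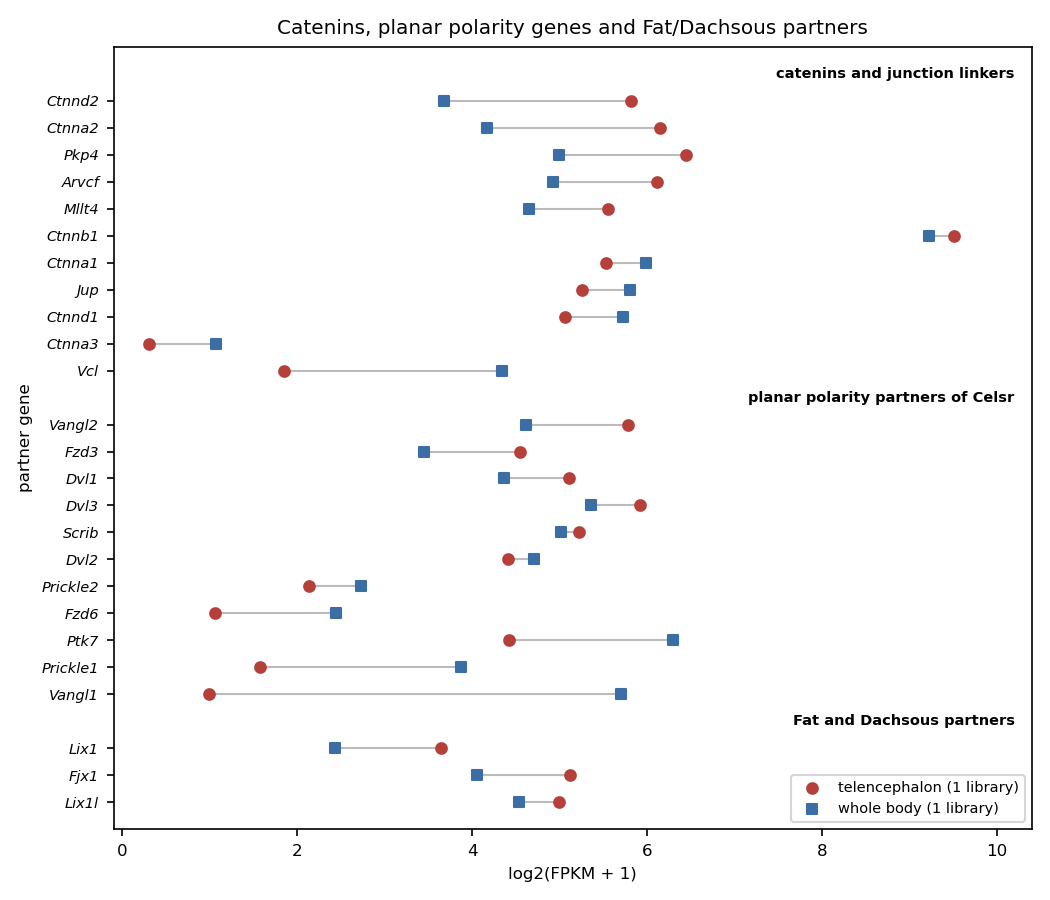
Levels of catenin, planar polarity and Fat or Dachsous partner genes as log2(FPKM + 1), telencephalon as red circles and whole body as blue squares, 1 library each, sorted by ratio within each list. Ctnnd2, Ctnna2, Vangl2 and Fzd3 lie to the right in telencephalon, and Vcl, Vangl1 and Prickle1 to the left.

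In the other partner lists no gene was past 2-fold on the higher side after 1 FPKM was added. The plain FPKM ratios of Ush1c (2.83), Clstn3 (2.01) and Lhfpl5 (2.01) were above it. A 708-base retained-intron isoform carried 90.2% of Ush1c in telencephalon. The protein-coding isoforms of Ush1c went the other way, at 0.154 FPKM in telencephalon, against 0.421 FPKM in whole body. Among 8 cadherin-related and calsyntenin genes 6 were measured and 3 were lower, with Clstn1, a calsyntenin of neuronal transport, the most abundant at 73.2 FPKM in telencephalon, against 59.0 FPKM in whole body. Clstn3 had the highest log2 ratio of that list, at 22.7 FPKM in telencephalon, against 11.3 FPKM in whole body, and Cdhr4 the lowest after 1 FPKM was added, at 0.356 FPKM in telencephalon, against 7.66 FPKM in whole body. Protein-coding isoforms of Cdhr4 held 0.356 FPKM in telencephalon, against 2.55 FPKM in whole body. Cdhr2 had a lower plain FPKM ratio, at 0.0463 FPKM in telencephalon, against 3.06 FPKM in whole body. Of 7 genes of proteases that cleave cadherins 2 were lower, Furin (8.92 FPKM in telencephalon, 33.5 FPKM in whole body) and Psen2 (4.19 FPKM in telencephalon, 9.92 FPKM in whole body). Psenen had the highest log2 ratio of them, at 42.8 FPKM in telencephalon, against 38.2 FPKM in whole body, and Adam10, the protease that sheds N-cadherin, stood at 26.5 FPKM in telencephalon, against 43.7 FPKM in whole body. Over all 7 partner lists 43 genes were measured, of which 8 were higher, beside 9.39% of all measured genes, and 13 lower, beside 21.2%.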

How the data were processed

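The authors deposited FPKM per gene and per isoform, with a column for each library. Per the submitters' processing notes TopHat, Cufflinks and Cuffdiff were used on GRCm38; versions and the annotation release are not given in the sources used here. Per the labels' protocols the kit was TruSeq RNA v2. FPKM are not counts, so no count model was run. Log2 ratios used a pseudocount of 1 FPKM. Fragment numbers were estimated with Python 3.11.15 from FPKM steps of single-isoform genes and GENCODE M21 transcript lengths, subtracting 336 bases in telencephalon and 322 in whole body. The check took only low values above 1.5 fragments, on longer transcripts of these genes. Of the checked values 88.0% in telencephalon and 89.9% in whole body were within 0.1 of a whole fragment. Evenly spread values would give 20%. The fit was tested on simulated data. Intervals use SciPy 1.17.1. Cdh15 is not analysed here, and a telencephalic marker is not reported here.

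All measured members could be named, and from each partner list the highest and lowest ratio and the most abundant gene; partner genes beyond these were chosen after their values were seen, as were the member pairs and the promoters shown. Members and lists were chosen with earlier results of these data known. Promoters come from RefSeq, the exon from GENCODE M21.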

Additional observations from a re-analysis of the deposited data

How the results depend on the processing

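No paired analysis was possible because each tissue has 1 library, and none could be left out. Of the 15 genes past 2-fold, 14 stayed past it in the same direction under pseudocounts of 0.1 and 0.5 FPKM, a common upper quartile, TPM, leaving out isoforms under 300 bases, and, added after seeing the data, protein-coding isoforms only; the exception was Pcdh12 under the last, which left 0 of its class lower. Of the 18 genes within 2-fold, 5 passed it under at least 1 of these, Celsr1 in 4 of them (log2 ratios from 1.04 to 1.20). The median log2 ratio of the members was 0.57 with a pseudocount of 0.1, 0.19 without a filter, 0.60 at 5 FPKM or more, and 0.53 in TPM. The median over all genes, -0.16 in the main setting, was -0.17, 0, -0.10 and -0.02 in the same order. With a pseudocount of 0.1, 4 type II genes were higher, beside 11.8% of all measured genes. A common upper quartile put 1 atypical cadherin higher, beside 10.1% of all measured genes. In TPM 1 atypical cadherin was higher and 1 lower, 1 delta-1 gene was higher, and 2 Fat and Dachsous genes were lower. There 12.7% of all measured genes were higher and 21.4% lower, and more genes also pass 1 unit. Cdh10 turned from -0.02 to 0.02 after upper-quartile scaling and to 0.11 as TPM. At a 4-fold limit on the log2 ratio after 1 FPKM was added, which Pcdh8 (1.92) misses, 2 members were higher, with 0 of type I, 1 of type II, 0 of delta-2 and 1 of Celsr, and 0 were lower among Fat and Dachsous genes and among Pcdh12 and Pcdh20. Of partner genes 7 were lower at 5 FPKM or more, beside 18.9% of all genes at that level. At 4-fold 1 partner gene was higher, beside 2.2% of all measured genes, and 4 were lower, beside 8.23%. The causes were not tested. Depth limits Cdh1, Cdh3, Fat2, Cdh9, Cdh16, Cdh17, Cdh19 and Cdh26, which had about 18 or fewer fragments in telencephalon.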
